A study of Mus musculus with 4 samples.

Results

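The 44 cell cycle genes described here were listed by function and span 5 roles: 17 genes of mitosis, 10 of DNA replication, 7 cyclins and kinases of the G1 phase, 4 inhibitors of the cyclin-dependent kinases, and 6 E2F factors and pocket proteins. Each gene was read from the probe set that names it alone and has the highest mean of log2(signal + 16) over the 4 arrays, out of 18194 genes so represented. Ccnb1 had no probe set that named it alone, which left 43 measured genes. Of these, 39 had a mean of log2(signal + 16) above the 40th percentile of probe sets, which equals that of a steady signal of about 27.3, and were tested among 12253 genes, while Ccnb2, Bub1, Plk1 and Kif20a were too dim.

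The samples were CD4+ T cells sorted from the lamina propria of the large intestine after collagenase digestion. All came from heterozygous GPR15-GFP knock-in mice of mixed 129/B6 strain, which carry green fluorescent protein (GFP) at the Gpr15 locus on 1 allele, so both groups share the knock-in. GFP+ cells, called GFP-positive here and titled GPR15positive, were compared with GFP- cells, called GFP-negative and titled GPR15negative, on 2 arrays each, numbered replicate 1 and replicate 2. The labels give no age, and neither the number of mice per sample nor whether samples of 1 number share mice. A p-value here speaks of the spread among these arrays alone, in which the replicate numbers differ in sex marker RNA, as given below.

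Quiescent T cells rest outside the cycle. Cyclin D bound to Cdk4 or Cdk6, and then cyclin E bound to Cdk2, phosphorylate the retinoblastoma family (Rb1, Rbl1, Rbl2), which frees E2F factors to switch on genes of DNA replication. Genes of mitosis peak later, in G2 and M phase, and many carry a promoter element called the cell cycle genes homology region (CHR) near CCAAT boxes, through which the pocket proteins keep them silent in resting cells. Proteins of the Cdkn1 and Cdkn2 families hold the kinases back. Memory and regulatory T cells of the gut include a fraction in cycle, which is commonly counted by staining for Ki-67, the product of Mki67.

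The promoters below show these elements in some of the genes described here. They run from 250 bases before to 50 bases after the start of the gene in RefSeq (build GRCm38.p6), written 5′ to 3′ on the gene's strand. Capitals mark 3 motifs, searched on both strands and allowed to overlap, so that some are written here as their reverse complement. These are the CHR (TTTGAA or TTCGAA), the CCAAT box (CCAAT) and the E2F site (TTTGGCGC, TTTCCCGC, TTTGCCGC or TTTCGCGC).
Mki67, chr7:135716330-135716629, minus strand: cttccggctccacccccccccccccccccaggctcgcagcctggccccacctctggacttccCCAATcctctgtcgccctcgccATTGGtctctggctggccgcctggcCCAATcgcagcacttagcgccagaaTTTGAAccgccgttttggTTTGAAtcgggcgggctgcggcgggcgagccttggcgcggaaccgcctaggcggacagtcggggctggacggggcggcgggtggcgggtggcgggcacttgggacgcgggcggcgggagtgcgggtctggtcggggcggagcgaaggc
Top2a, chr11:99024140-99024439, minus strand: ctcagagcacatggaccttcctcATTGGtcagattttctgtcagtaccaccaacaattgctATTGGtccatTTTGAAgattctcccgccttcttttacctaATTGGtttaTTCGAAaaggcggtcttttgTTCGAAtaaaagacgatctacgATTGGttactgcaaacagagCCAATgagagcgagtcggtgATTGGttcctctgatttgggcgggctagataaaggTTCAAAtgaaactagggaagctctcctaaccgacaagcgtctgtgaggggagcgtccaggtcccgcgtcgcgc
Ube2c, chr2:164769679-164769978, plus strand: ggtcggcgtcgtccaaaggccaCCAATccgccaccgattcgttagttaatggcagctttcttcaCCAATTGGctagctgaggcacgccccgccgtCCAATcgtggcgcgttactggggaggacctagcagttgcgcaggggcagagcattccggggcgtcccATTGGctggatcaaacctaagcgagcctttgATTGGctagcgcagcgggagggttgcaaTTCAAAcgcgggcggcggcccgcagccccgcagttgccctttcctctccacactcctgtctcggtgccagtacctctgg
Mcm6, chr1:128359656-128359955, minus strand: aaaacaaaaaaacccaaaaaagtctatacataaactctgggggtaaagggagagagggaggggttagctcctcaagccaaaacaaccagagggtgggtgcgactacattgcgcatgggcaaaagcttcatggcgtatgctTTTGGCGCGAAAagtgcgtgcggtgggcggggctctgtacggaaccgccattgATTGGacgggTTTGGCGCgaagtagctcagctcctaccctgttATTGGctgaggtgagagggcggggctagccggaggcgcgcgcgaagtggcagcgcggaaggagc
E2f3, chr13:29986014-29986313, minus strand: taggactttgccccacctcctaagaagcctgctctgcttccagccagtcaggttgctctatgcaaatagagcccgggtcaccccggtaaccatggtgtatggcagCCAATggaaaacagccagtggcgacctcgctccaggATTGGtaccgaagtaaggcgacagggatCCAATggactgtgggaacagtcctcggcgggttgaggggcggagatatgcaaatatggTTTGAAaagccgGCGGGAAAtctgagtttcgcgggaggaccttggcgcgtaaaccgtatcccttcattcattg
The first 3 are mitotic genes whose signals were lower on both GFP-positive arrays. The Mki67 window held CHR matches beginning 116 and 98 bases before the start, with 3 CCAAT boxes further upstream, and the Top2a window held 4 CHR matches and 6 CCAAT boxes. In Ube2c a single CHR match began 29 bases before the start, downstream of 6 CCAAT boxes. Mcm6, a replication gene whose groups overlapped, held 3 E2F matches, 2 of which overlap, and no CHR. E2f3, which was higher on both GFP-positive arrays, has another RefSeq start whose window held no match to any of the 3 motifs, and the window printed is the one with matches.

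Promoter windows were at hand for 36 of the 44 genes, and a gene with several starts was counted once if any window matched. The CHR letters were present in 11 of 13 mitotic genes, 2 of 9 replication genes, 0 of 5 G1 cyclins and kinases, 0 of 4 inhibitors and 3 of 5 E2F and pocket protein genes, against 21.7% of all 27025 genes with a window. An E2F match was present in 1 of 13 mitotic genes, 4 of 9 replication genes and 3 of 5 E2F and pocket protein genes, against 2.60% of all genes. CCAAT boxes were present in 12 of 13 mitotic and 8 of 9 replication genes, against 41.1% of all genes. The window of Birc5, a mitotic gene lower on both GFP-positive arrays, held no match to any of the 3 motifs. Aurka, Cdk1, Kif11 and Cdc20 held CHR matches, and none was lower on both GFP-positive arrays than on both GFP-negative ones. These matches are letters in a window and say nothing of binding in these cells. A link between the motifs and the differences was not tested.

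The sort was visible in Gpr15, at 619 and 729 on the GFP-positive arrays and 146 and 162 on the GFP-negative arrays, a log2 difference of 2.02 (95% interval 1.48 to 2.56, adjusted p = 0.0829). Among measured markers of CD4 T cells (5 of 7), the summed signal was 12729 and 11484 in GFP-positive cells, against 14017 and 13471 in GFP-negative cells, and 3 of the 5 were lower without overlap, beside 18.6% of all tested genes. Markers of other cell types were also present, and some of these were higher without overlap, as were 28.7% of all tested genes. All 4 plasma cell markers were tested and summed to 7026 and 4675 against 4230 and 4973, with 2 higher without overlap. Myeloid markers, of which 4 of 7 were tested and Itgam, C1qa and Adgre1 were dim, summed to 198 and 1210 against 133 and 222, with 2 higher. All 6 epithelial markers were tested and summed to 1447 and 472 against 383 and 420, with 3 higher. B cell markers (4 of 5 measured, Pax5 dim) summed to 211 and 182 against 89.7 and 154, with 1 higher. Mast cell markers (4, of which Mcpt1, Mcpt2 and Cpa3 were dim) summed to 205 and 296 against 140.1 and 100.3, with 1 higher. The 4 stromal markers summed to 473 and 773 against 332 and 916, with 1 lower. Of 2 CD8 T cell markers, summing to 64.4 and 84.7 against 76.9 and 61.4, Cd8b1 was dim. Cd8a was higher without overlap, at 52.1 and 60.2 against 32.5 and 42.5. The only erythroid marker measured, Hba-a1, was dim. The part of these cells in the cell cycle results was not tested. The replicate numbers differed in Xist, the RNA that coats the inactive X chromosome of females, which had a signal of 4313 in GFP-positive and 4172 in GFP-negative cells of replicate 1. In replicate 2 it had 112 in GFP-positive and 55.1 in GFP-negative cells. Eif2s3y, a gene of the Y chromosome, had 5.08 in GFP-positive and 18.9 in GFP-negative cells of replicate 1. Its signals in replicate 2 were 2177 and 2329. By these markers replicate 1 read as female and replicate 2 as male in both groups, so the spread within a group is between mice of different sex. Differences within a replicate number are therefore given beside many of the pooled ones, and the plot of differences shows them for all tested members.

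None of the 39 tested members passed the adjusted threshold of 0.05 in limma, where 4 genes, or 0.0326% of all tested genes, were called. The lowest adjusted p among members was 0.241, for Birc5. At an unadjusted p under 0.05 there were 6 members lower and 1 higher in GFP-positive cells, where 4.37% of all tested genes were lower and 10.2% higher. That count of lower members was 0 without GFP-positive replicate 1, 9 without GFP-positive replicate 2, 2 without GFP-negative replicate 1 and 3 without GFP-negative replicate 2, where 3.51%, 4.13%, 2.79% and 3.05% of all tested genes were lower.

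By the spread of the arrays, 16 of 39 members (41.0%) were lower in both GFP-positive samples than in both GFP-negative samples, where 18.6% of all tested genes were. On the other side, 6 of 39 (15.4%) were higher without overlap, against 28.7% of all tested genes. Differences are of log2(signal + 16), where a negative value means lower in GFP-positive cells. The median difference of the members was -0.13, beside 0.07 for all tested genes, and 28 of 39 were below 0, beside 42.3% of all tested genes. That median was -0.060 without GFP-positive replicate 1, -0.088 without GFP-negative replicate 2 and -0.26 without GFP-negative replicate 1, and -0.40 under median scaling, where that of all genes was -0.20. In these bulk samples, fewer cells in cycle and less RNA per cell cannot be told apart.

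**Figure D1:**
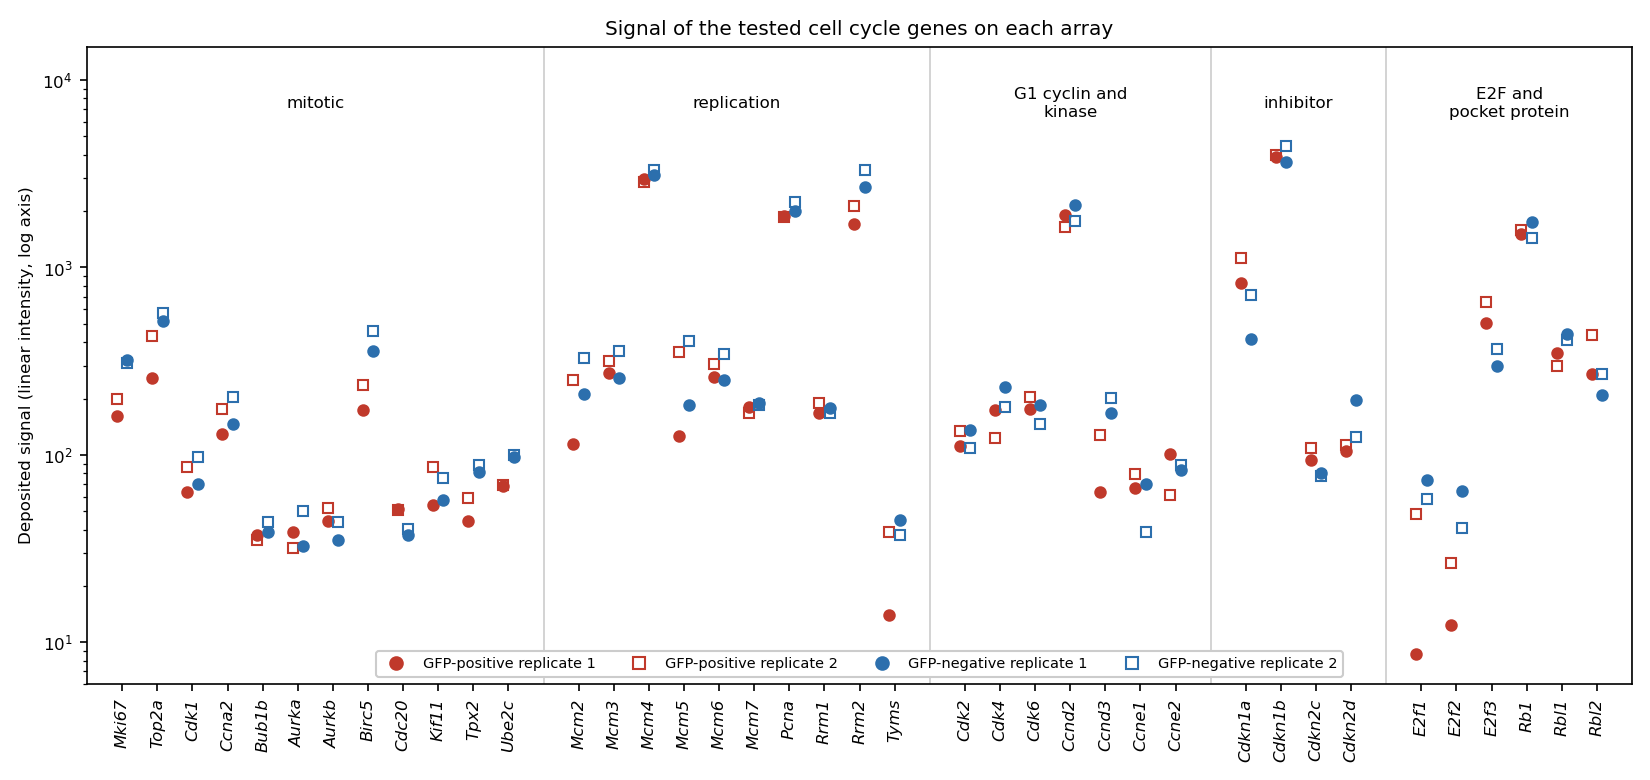
Deposited signal (log axis) of the 39 tested members on each of the 4 arrays, grouped by role, with GFP-positive arrays in red to the left and GFP-negative arrays in blue to the right of each name, circles for replicate 1 and open squares for replicate 2. Mki67, Birc5, Top2a and Rrm2 show both red points below both blue ones, E2f3 and Cdkn1a the reverse, and Mcm5 is split by replicate number, at 126 and 185 on replicate 1 and 356 and 407 on replicate 2.

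Dim genes as a whole read higher on the GFP-positive arrays, so the members were set beside genes of like signal. Below a mean signal of 60, the 7 members had a median of -0.15 and all 4142 genes one of 0.26. Between 60 and 200, 15 members had a median of -0.10 and all 3731 genes 0.12. Between 200 and 1000, 11 members had -0.34 and all 2922 genes -0.06. From 1000 upward, 6 members had -0.14 and all 1458 genes -0.08. The members' median was the lower one in all 4 bands.

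Several mitotic genes were lower on both GFP-positive arrays. Birc5 encodes survivin, a subunit of the chromosomal passenger complex that corrects the attachment of chromosomes to the spindle. Its signals were 174 and 235 in GFP-positive cells and 360 and 460 in GFP-negative cells, means of 205 ± 43.4 and 410 ± 70.9 (SD, n = 2 each). The groups were well apart, with a log2 difference of -0.95 (95% interval -1.59 to -0.32, adjusted p = 0.241) and nearly equal values of -0.99 within replicate 1 and -0.92 within replicate 2. Mki67, whose protein coats mitotic chromosomes, had signals of 161 and 199 in GFP-positive cells, against 323 and 311 in GFP-negative cells. That is a difference of -0.77 (-1.32 to -0.23, adjusted p = 0.253), with -0.94 and -0.61 within replicates 1 and 2.

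Top2a, the topoisomerase that disentangles sister chromatids, had 259 and 431 in GFP-positive cells, against 519 and 573 in GFP-negative cells. The GFP-positive samples differed from each other by about as much as the groups did, and the difference was -0.68 (-1.41 to 0.05, adjusted p = 0.364), with -0.96 and -0.40 within replicates 1 and 2. It was -0.33 without GFP-positive replicate 1, -1.03 without GFP-positive replicate 2 and -0.34 with the mean of its probe sets. Tpx2, a spindle assembly factor that activates Aurora A kinase, had 44.5 and 58.6 against 81.0 and 88.7, a difference of -0.58 (-1.14 to -0.03, adjusted p = 0.333), with -0.68 and -0.49 within the replicates. With a pseudocount of 64 it was -0.37. Its other probe sets went the other way, up to 0.87 for one whose suffix x marks possible cross-hybridisation, and with the mean of its probe sets the difference was 0.29. Ube2c, the ubiquitin-conjugating enzyme of the anaphase-promoting complex, had 68.7 and 69.5 against 97.2 and 100.05. Its replicates were close to each other within both groups, at a difference of -0.43 (-0.93 to 0.07, adjusted p = 0.400), with -0.42 and -0.44 within replicates 1 and 2.

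Other genes of mitosis did not share that pattern. Cdk1, the kinase that drives entry into mitosis, had 63.8 and 85.8 in GFP-positive cells and 70.0 and 97.1 in GFP-negative cells, so the groups overlapped (-0.13, interval -0.76 to 0.51), and the value turned to 0.05 without GFP-positive replicate 1. Its partner Ccna2 (cyclin A2) had 130 and 176 against 146 and 203, a difference of -0.17 (-0.83 to 0.49). For both genes the gap between replicate 1 and replicate 2 was wider than that between groups. Aurkb, the kinase of the complex that survivin belongs to, was slightly higher on the GFP-positive arrays, at 44.4 and 52.3 against 35.4 and 43.9 (0.21, -0.33 to 0.76), and turned to -0.01 under quantile normalization. Cdc20, an activator of the anaphase-promoting complex, had 51.2 and 51.1 against 37.4 and 40.2 (0.29, -0.21 to 0.80), which was 0.07 under quantile normalization. With the mean of its probe sets Cdc20 turned to -0.16, its others being under the cut-off and differing by -0.84 and 0.06. Aurkb and Cdc20 both lie in the band of dim genes.

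The remaining mitotic members were dim or level. Kif11, the kinesin that separates spindle poles, had 53.8 and 86.1 against 57.2 and 75.6. Aurka, the spindle pole kinase, had 38.6 and 32.0 against 32.9 and 50.1. Bub1b, of the spindle checkpoint, was lower without overlap but only narrowly, at 37.5 and 35.0 against 39.1 and 43.8. Its other probe set above the cut-off was higher without overlap, at 38.6 and 38.8 against 32.2 and 36.7. Among the untested genes, Ccnb2 (cyclin B2) had 11.4 and 43.4 against 22.7 and 39.0, with a mean on the log2 scale under the cut-off, and the checkpoint kinase gene Bub1 had 9.07 and 20.3 against 13.0 and 42.0. The signals of Plk1, the polo-like kinase, were between 4.58 and 22.9, and those of Kif20a, a kinesin of cytokinesis, between 1.34 and 3.06. In all, 6 of 12 tested mitotic genes were lower without overlap and 2 were higher, beside 18.6% and 28.7% of all tested genes. Of the 19 mitotic probe sets above the cut-off, 6 were lower without overlap and 6 higher. The like share over all probe sets was not counted. With the mean of each gene's probe sets, 5 of 12 mitotic genes were lower and 1 higher, beside 16.3% and 30.5% of all tested genes. Where probe sets of suffix x or s were passed over, 5 were lower and 3 higher, beside 18.8% and 28.6%. The size of the excess of lower mitotic genes over higher ones thus varied with how probe sets were read.

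**Figure D2:**
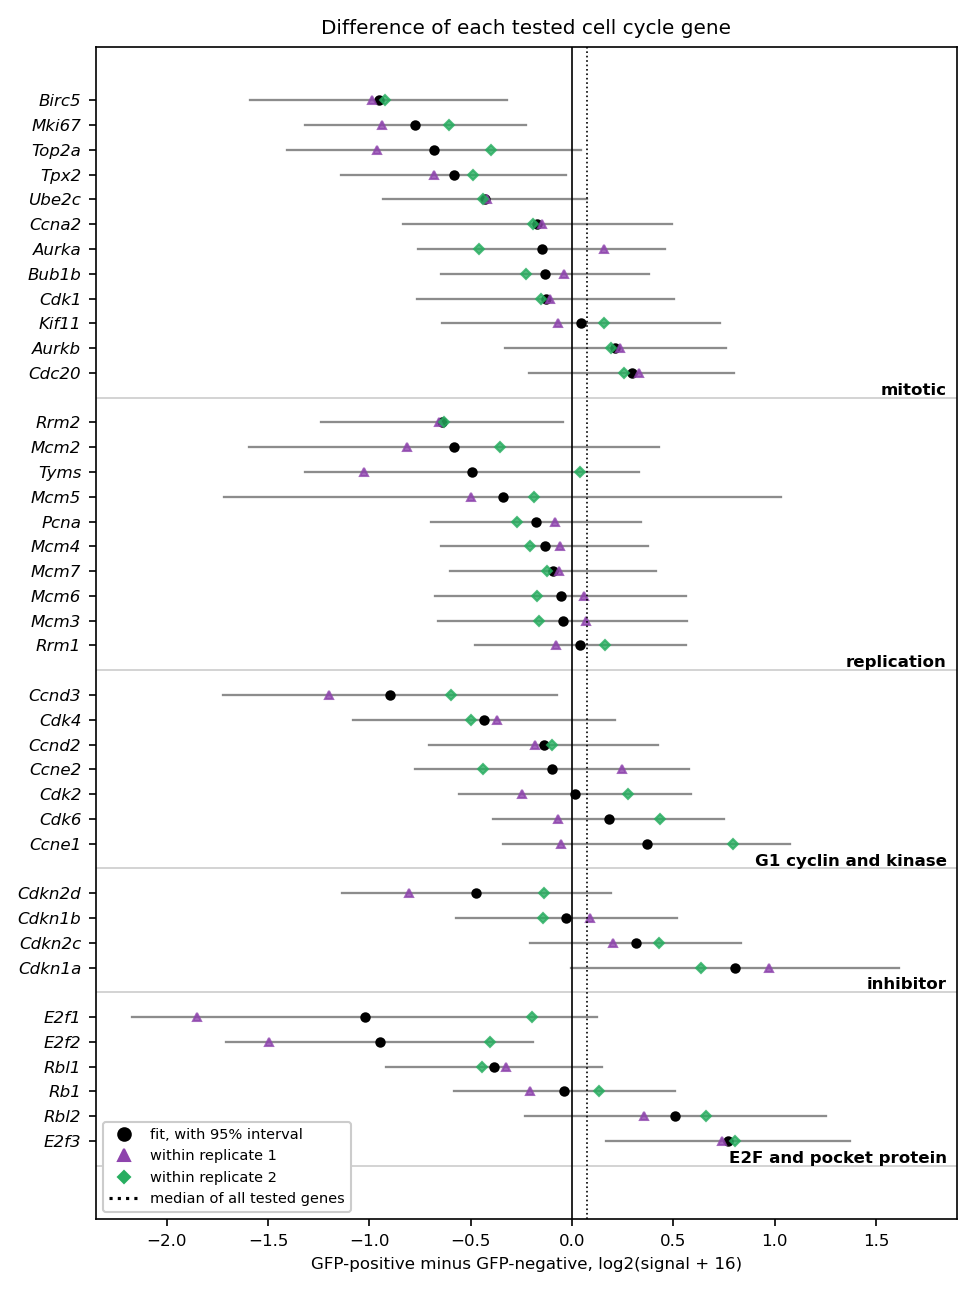
GFP-positive minus GFP-negative difference in log2(signal + 16) for the 39 tested members by role, with the fitted value and its 95% interval in black, the difference within replicate 1 as triangles and within replicate 2 as diamonds, and the median of all tested genes (0.07) as a dotted line. Birc5, Ube2c, Rrm2 and E2f3 have nearly equal values in both replicates, while for E2f1 they lie at -1.85 and -0.20.

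Differences of the replication genes ran from -0.64 to 0.04, and those of the mitotic genes from -0.95 to 0.29. The gap at the low end was that of Rrm2, the regulated subunit of ribonucleotide reductase, which makes deoxynucleotides. It had 1704 and 2137 in GFP-positive cells, against 2691 and 3319 in GFP-negative cells, a difference of -0.64 (-1.24 to -0.04, adjusted p = 0.325), with -0.65 and -0.63 within the replicates. This probe set has the suffix x, and the next one of the gene, without a suffix, had 232 and 231 against 207 and 266 and a difference of -0.02. The catalytic subunit gene Rrm1 had 167 and 189 against 178 and 167, a difference of 0.04 (-0.48 to 0.56).

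Mcm2 to Mcm7 encode the 6 subunits of the replicative helicase. Mcm4 had 2973 and 2864 against 3102 and 3313 (-0.13, -0.64 to 0.38), and Mcm7 had 179 and 168 against 189 and 184 (-0.10, -0.60 to 0.41). In both the groups were narrowly apart. Mcm3 (272 and 317 against 259 and 357) and Mcm6 (262 and 306 against 250.4 and 346) overlapped and had opposite signs in the 2 replicate numbers. Their probe sets above the cut-off disagreed, running from -0.79 to -0.05 for Mcm3 and from -0.18 to 0.97 for Mcm6. Mcm2 and Mcm5 followed the replicate number more than the group. Mcm2 had 114 and 253 against 212 and 327, a group difference of -0.58 (-1.60 to 0.43) beside a replicate 2 minus replicate 1 difference of 0.82. For Mcm5, at 126 and 356 against 185 and 407, these were -0.34 (-1.72 to 1.03) and 1.23.

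Pcna, the sliding clamp of DNA polymerase, had 1882 and 1858 against 1999 and 2247, a difference of -0.18 (-0.70 to 0.34, adjusted p = 0.742). Tyms, thymidylate synthase, was dim at 14.0 and 39.0 against 45.1 and 37.6, with a difference of -1.03 within replicate 1 and 0.04 within replicate 2. Of 10 replication genes, 4 were lower without overlap and 0 higher, beside 18.6% and 28.7% of all tested genes.

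The brightest probe sets of 7 tested members carry the suffix x and those of 4 the suffix s, which mark probes that can bind other transcripts or that several transcripts share. Where such probe sets were passed over, a choice made after seeing the data, the median of the replication genes was -0.24 in place of -0.16. Under that choice Mcm4 had 758 and 809 against 934 and 1095, and Mcm2 had 25.5 and 28.4 against 63.6 and 63.2, with differences of -0.36 and -0.89 and no overlap in either. Of 23 members with several probe sets above the cut-off, 10 had differences of both signs.

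**Figure D3:**
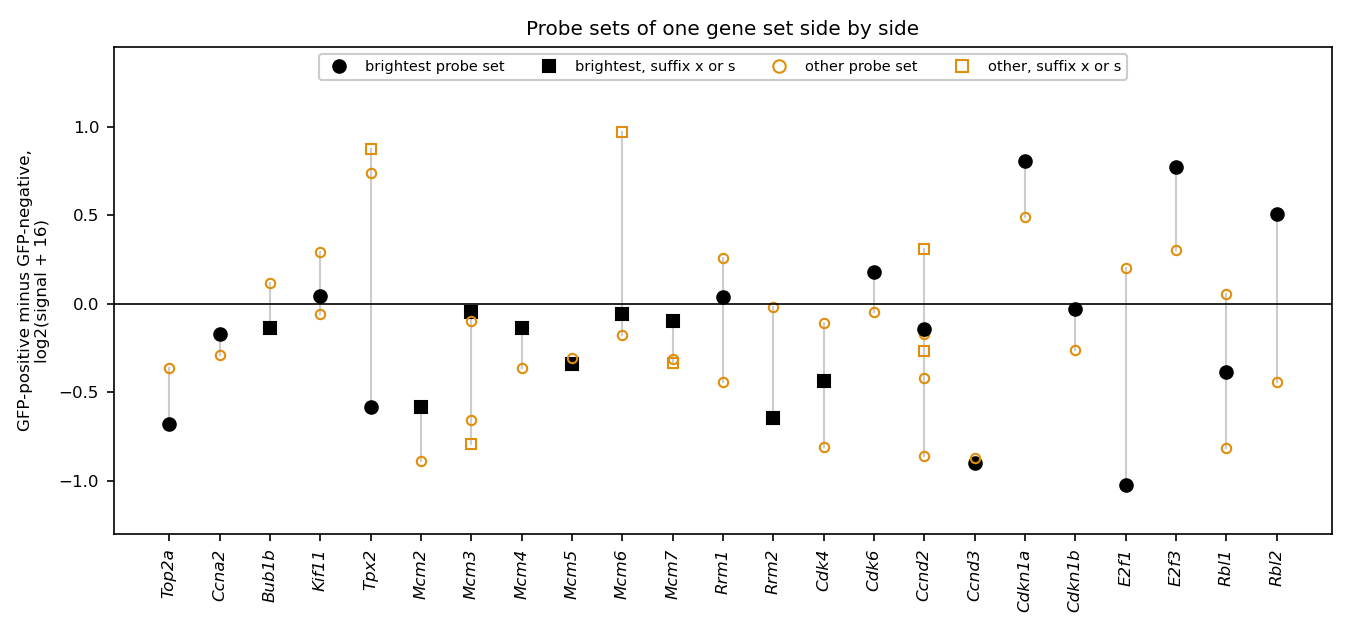
Difference in log2(signal + 16) for every probe set above the cut-off of the 23 members with more than 1, with the brightest in black and others in orange, and squares for suffixes x and s. The 2 probe sets of Ccnd3 (-0.90 and -0.87) and those of Cdkn1a (0.80 and 0.49) lie on 1 side of 0, while those of Tpx2, Mcm6, Rbl2 and E2f1 lie on both.

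Among G1 genes, Ccnd3, encoding cyclin D3, was lower on both GFP-positive arrays. It had 63.7 and 128 in GFP-positive cells and 167 and 202 in GFP-negative cells, a difference of -0.90 (-1.72 to -0.08, adjusted p = 0.323), with -1.20 and -0.60 within replicates 1 and 2. Without GFP-positive replicate 1 it was -0.47, and with the mean of its probe sets -0.59. A second probe set had 56.3 and 63.7 against 123 and 123, a difference of -0.87, so both separated the groups. Ccnd2, encoding cyclin D2, had 1900.1 and 1646 against 2159 and 1763. Its groups overlapped, at -0.14 (-0.71 to 0.43, adjusted p = 0.822), and its 7 probe sets ran from -0.86 to 0.31.

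The kinase partners of the D cyclins differed from each other in sign. Cdk4 had 175 and 123 against 231 and 181, narrowly apart, with -0.43 (-1.08 to 0.21, adjusted p = 0.502), and Cdk6 had 176 and 204 against 185 and 147, overlapping, with 0.18 (-0.39 to 0.75). For Cdk2, the cyclin E kinase, the signals were 112 and 135 against 136 and 109 (0.01, -0.56 to 0.59). Ccne1 (66.9 and 79.0 against 70.2 and 38.9) and Ccne2 (102 and 60.8 against 83.3 and 88.3), the E cyclins, overlapped and had opposite signs in the 2 replicate numbers. Cdk4 and Ccnd3 were the 2 of 7 G1 genes (28.6%) that were lower without overlap, and 0 were higher. Of all tested genes, 18.6% were lower and 28.7% higher.

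The inhibitors went both ways. Cdkn1a encodes p21, the target of p53 that blocks cyclin-dependent kinases and binds Pcna. It had 829 and 1119 in GFP-positive cells and 415 and 713 in GFP-negative cells, means of 974 ± 205 and 564 ± 211 (SD, n = 2 each). The groups were apart, at a difference of 0.80 (-0.01 to 1.61, adjusted p = 0.344), with 0.97 and 0.64 within the replicates, and a second probe set differed by 0.49, also without overlap. The difference was 0.43 without GFP-negative replicate 1 and 0.49 under median scaling. Cdkn2c, encoding p18, an inhibitor of Cdk4 and Cdk6, had 94.5 and 109 against 80.1 and 77.0 (0.31, -0.21 to 0.84), and 0.04 under median scaling.

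Cdkn2d, encoding p19 of the same family, was lower in GFP-positive cells, at 105 and 113 against 196 and 125. Its difference of -0.47 (-1.13 to 0.19) rested on replicate 1, where it was -0.81, beside -0.14 in replicate 2. Cdkn1b, encoding p27, the inhibitor that marks resting T cells, had 3867 and 3997 against 3632 and 4422. Its groups overlapped, with a difference of -0.03 (-0.57 to 0.52, adjusted p = 0.970) that turned to 0.055 under quantile normalization.

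E2F genes split by member. E2f1 and E2f2 encode activating E2F factors, and both were dim. E2f1 had 8.73 and 48.5 in GFP-positive cells and 73.2 and 57.9 in GFP-negative cells, a difference of -1.02 (-2.17 to 0.12, adjusted p = 0.381). The within-replicate values were -1.85 and -0.20, and the difference was -0.33 without GFP-positive replicate 1, -1.72 without GFP-positive replicate 2 and -0.34 with the mean of its probe sets. E2f2 had 12.4 and 26.7 against 63.9 and 40.5, a difference of -0.95 (-1.71 to -0.19, adjusted p = 0.277), with -1.49 and -0.41 within the replicates, -1.43 with a pseudocount of 1 and -0.47 with one of 64. Its second, dimmer probe set had 4.09 and 9.69 against 36.2 and 19.1. Both probe sets of E2f2 separated the groups, but the second was under the cut-off. The first passed the cut-off only through its GFP-negative signals, as both GFP-positive ones were under about 27.3. A second probe set of E2f1 differed by 0.20.

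E2f3, the third activating member, was on the other side, with 508 and 653 in GFP-positive cells and 298 and 367 in GFP-negative cells, means of 581 ± 102 and 333 ± 48.5 (SD, n = 2 each). Its difference was 0.77 (0.17 to 1.37, adjusted p = 0.273), at 0.74 and 0.80 within the replicates, and it ran from 0.46 under median scaling to 0.95 without GFP-positive replicate 1 over the 14 alternatives. A second probe set differed by 0.31 with overlapping groups.

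Of the pocket proteins, Rb1 itself had 1513 and 1582 against 1752 and 1442 and a difference of -0.04 (-0.58 to 0.51, adjusted p = 0.958), which turned to 0.013 under quantile normalization. With the mean of its probe sets it was -0.53. The other probe set of Rb1 was under the cut-off and differed by -1.02, without overlap. Rbl1, encoding p107, was lower without overlap, at 350.4 and 299 against 443 and 412 (-0.38, -0.92 to 0.15), and its other probe sets above the cut-off ran from -0.81 to 0.06. Rbl2, encoding p130, the pocket protein of resting cells, had 270.5 and 437 against 208 and 270.1, so the groups only just did not overlap, with a difference of 0.51 (-0.23 to 1.25, adjusted p = 0.493). It was 0.36 and 0.66 within the replicates, 0.84 without GFP-positive replicate 1, 0.18 without GFP-positive replicate 2, 0.33 without GFP-negative replicate 1, 0.21 under median scaling and 0.033 with the mean of its probe sets. Its other probe set overlapped between groups and differed by -0.44.

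Set side by side, the role classes had medians of -0.16 (mitotic, 12 tested), -0.16 (replication, 10), -0.10 (G1 cyclins and kinases, 7), 0.14 (inhibitors, 4) and -0.21 (E2F and pocket proteins, 6), beside 0.07 for all tested genes. Within replicate 1 they were -0.13, -0.08, -0.18, 0.15 and -0.27, and within replicate 2 -0.31, -0.18, -0.10, 0.15 and -0.03. The mitotic median was -0.38 without GFP-negative replicate 1, -0.34 without GFP-positive replicate 2 and -0.01 without GFP-negative replicate 2, and the replication median was -0.06 without GFP-positive replicate 1 and -0.27 without GFP-negative replicate 1. Under quantile normalization the mitotic median was -0.37 and the replication median -0.10. No difference between classes was tested.

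**Figure D4:**
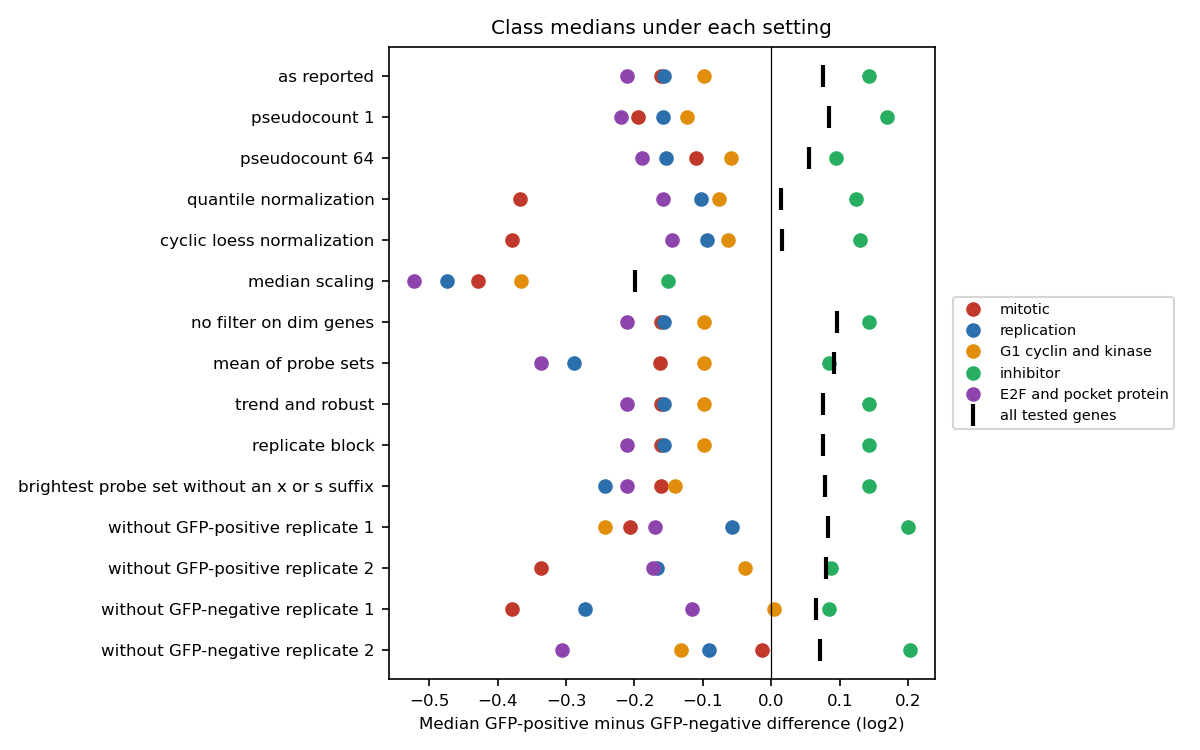
Median GFP-positive minus GFP-negative log2 difference of each role class (coloured points) and of all tested genes (black bars) as reported and under the 14 alternatives. The medians of every class but the inhibitors lie left of the black bar in every row. Median scaling moves all of them left together, with the median of all genes at -0.20.

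The spread between replicate numbers gives a scale for these values. In 12 of 39 tested members the gap between replicate 2 and replicate 1 was larger than that between the groups, beside 41.4% of all tested genes. Among members, 21 had a negative difference in both replicate numbers and 6 a positive one in both. The like count over all tested genes was not made, so whether the members depart from it is not known.

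Further genes of the cycle that are not among the 44 were read from 3 lists, in none of which a gene was called. At an unadjusted p under 0.05, limma had 10 of the 84 tested lower (11.9%) and 2 higher (2.38%), beside 4.37% and 10.2% of all tested genes. Of 27 tested licensing and replication genes, 7 were lower and 7 higher without overlap (25.9% each, beside 18.6% lower and 28.7% higher of all tested genes), and the median was -0.19. The lower ones included Uhrf1, which maintains DNA methylation at replication forks, at 457 and 632 against 834 and 1016 (-0.76, -1.39 to -0.12), and the primase gene Prim1, at 143 and 153 against 221 and 288 (-0.71). Cdc7 and Dbf4, the kinase that fires replication origins and its activator, differed by -0.71 and -0.68. Cdc45, of the active helicase, was higher, at 76.0 and 66.3 against 12.7 and 48.8 (1.01, 0.01 to 2.02), and so was the histone chaperone gene Chaf1b (0.75).

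Of 32 tested further mitotic genes, 9 were lower (28.1%) and 6 higher (18.8%) without overlap, with a median of -0.07. Of 25 further regulators, 9 were lower (36.0%) and 6 higher (24.0%), also with a median of -0.07, beside 0.07 for all tested genes. Beside both lists, 18.6% of all tested genes were lower and 28.7% higher without overlap. The regulators held both subunits of an E2F complex. E2f4, the E2F factor that partners with p130 in resting cells, had 24.6 and 25.1 against 67.8 and 72.1, a difference of -1.07 (-1.58 to -0.57, adjusted p = 0.167). Tfdp1, the dimerisation partner of E2F proteins, had 547 and 617 against 1132 and 1243, a difference of -1.01 (-1.54 to -0.48, adjusted p = 0.187). In both genes the replicates lay close together and the groups far apart, and neither passed the threshold. Both GFP-positive signals of E2f4 were under the cut-off signal of about 27.3, so it was tested only through its GFP-negative signals.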

How the data were processed

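RNA of the sorted cells was labelled with biotin and measured on arrays by Affymetrix protocols, per the labels. The deposited values are linear intensities, 1 per probe set and array, and the software that made them is not given in the sources used here. The mean after trimming 2% at each end was 150.0 on every array, while medians were 46.0 and 45.2 on the GFP-positive and 37.0 and 36.1 on the GFP-negative arrays, so arrays were scaled by 1 factor and not quantile normalized. Of 45101 probe sets, 34958 had 1 gene symbol in the platform annotation. Values were taken to log2(signal + 16) and fitted two-sided with limma 3.58.1 in R 4.3.3 (lmFit and eBayes, group only, 2 residual and 3.74 prior degrees of freedom), with Benjamini-Hochberg adjustment over 12253 genes. Precision is limited by having 2 arrays in each group.

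The 44 members and all lists were chosen with earlier results of these data known. Genes followed with full statistics were Mki67, Top2a, Cdk1, Pcna, the brightest member of each role, and members whose groups did not overlap and differed by at least 0.5. Genes of the further lists were named after their values were seen. Alternatives changed the pseudocount, normalization, filter, probe set choice, limma settings, replicate block and arrays included.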

Additional observations from a re-analysis of the deposited data

How the results depend on the processing

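The count of all called genes was 4. It was 0 with a pseudocount of 1, quantile normalization, cyclic loess, median scaling, no filter, the replicate block, or without any 1 array (0 to 0), where limma gave 1211 to 2188 genes at an unadjusted p under 0.05, and 8 with the mean of probe sets, 175 with a pseudocount of 64 and 241 with trend and robust settings. No member was called under any of the 14 alternatives, and the lowest adjusted p was 0.0771, for Rrm2 with trend and robust settings. Same-numbered arrays deviated together (correlation 0.198) and were alike in Xist and Eif2s3y, so the numbers match the samples by sex. Whether they also share mice is not known. The main fit took no account of the number. In limma with the block, members at an unadjusted p under 0.05 rose to 7 lower and 2 higher, beside 5.12% and 12.3% of all tested genes. Under median scaling, 26 members were lower and 1 higher without overlap, beside 40.2% and 13.2% of all tested genes, and the class medians were -0.43 (mitotic), -0.47 (replication), -0.37 (G1), -0.15 (inhibitors) and -0.52 (E2F and pocket proteins), with all genes at -0.20. The mitotic median was -0.37 under quantile normalization and -0.38 under cyclic loess; the replication median was -0.29 with the mean of probe sets and -0.24 without x or s suffixes. The inhibitor median was 0.17 and 0.095 with pseudocounts of 1 and 64, 0.12 under quantile normalization, 0.13 under cyclic loess and 0.085 with the mean of probe sets. Without 1 array, medians ran from -0.38 to -0.013 (mitotic), -0.27 to -0.058 (replication), -0.24 to 0.0046 (G1), 0.084 to 0.20 (inhibitors) and -0.31 to -0.12 (E2F and pocket proteins). Tpx2 turned to 0.29 with the mean of probe sets, Cdkn1b to 0.055 and 0.051 and Rb1 to 0.013 and 0.038 under quantile normalization and cyclic loess, and without 1 array Cdk1 ran from -0.33 to 0.068, Ccnd2 from -0.29 to 0.0046, Cdkn1b from -0.17 to 0.11 and Rb1 from -0.18 to 0.10. The cause of these changes was not tested. Signals near the cut-off, as for E2f1, E2f2, E2f4 and Tyms, limit what their differences show.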
